A study of Rattus norvegicus with 3 samples.

Results

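The genes examined here encode the proteins of the mitochondrial ribosome. They were taken as every gene symbol that begins with Mrpl or Mrps followed by a digit, with 1 row kept per symbol, the row with the highest mean. The rule found 76 rows and 73 symbols among 30957 rows in each of the 3 libraries. Of the 73, 46 belong to the large subunit and 26 to the small subunit by their place in the mammalian mitoribosome. The remaining one, Mrps36, carries the family name but is known as a part of the 2-oxoglutarate dehydrogenase complex. The names do not always match the place: Mrps18a and Mrps30 sit in the large subunit and were counted there.

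The libraries hold messenger RNA of motor cortex, the brain area that commands movement, from 3 rats of the Sprague-Dawley strain, all male. Each rat had undergone cerebral ischemia and reperfusion, in which blood supply to brain tissue is cut off and restored. They are named by the labels' own numbers, 19, 35 and 70, which mark them as separate animals. All are labelled 8 weeks, which may be an age or a time since the operation. They form 1 group, no control animals were analysed here, and the labels do not describe how the ischemia was produced. Levels are in FPKM, a fragment count scaled to gene length and library size, so that levels of different genes can be set side by side. Wherever 3 values follow each other, they belong to rats 19, 35 and 70 in that order.

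Mitochondria keep their own ribosome because a few proteins of the respiratory chain and the ATP synthase are still encoded on the mitochondrial chromosome and are made inside the organelle. The ribosomal RNA comes from that chromosome, while every ribosomal protein is encoded in the nucleus, made in the cytosol and imported. Some of these proteins descend from bacterial ribosomal proteins, and others were gained in mitochondria. Loss of single members in people, such as MRPS16, MRPS22, MRPL3, MRPL12 or MRPL44, causes a combined defect of the respiratory chain, and tissues with a high energy need, the brain among them, are often affected.

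The sequences below are shown because they belong to genes whose values carry the results: a pair of members read in opposite directions from one interval (Mrpl46 and Mrps11), the member with the highest mean (Mrpl17) and a pair of members whose values went in opposite directions in rat 70 (Mrpl41 and Mrpl52). Each is 300 bases from RefSeq on the rat build GRCr8, from 250 bases before to 50 after the gene's start, read along the gene's strand. Capitals mark the letters searched for 3 factors known from genes of mitochondrial biogenesis, on both strands: GCGCA and GCGC with any 1 base between them for NRF1, CCGGAAG for ETS factors such as GABPA, and ATGGCGGC for YY1. None of the 3 patterns contains another.
Mrpl46, minus strand of chr1:142116981-142117280: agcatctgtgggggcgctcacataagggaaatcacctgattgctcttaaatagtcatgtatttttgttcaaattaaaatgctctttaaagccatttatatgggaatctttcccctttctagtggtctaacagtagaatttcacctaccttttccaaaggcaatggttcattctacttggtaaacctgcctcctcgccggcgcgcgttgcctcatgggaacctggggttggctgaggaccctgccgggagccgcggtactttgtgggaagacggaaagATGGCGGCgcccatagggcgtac
Mrpl17, minus strand of chr1:169575650-169575949: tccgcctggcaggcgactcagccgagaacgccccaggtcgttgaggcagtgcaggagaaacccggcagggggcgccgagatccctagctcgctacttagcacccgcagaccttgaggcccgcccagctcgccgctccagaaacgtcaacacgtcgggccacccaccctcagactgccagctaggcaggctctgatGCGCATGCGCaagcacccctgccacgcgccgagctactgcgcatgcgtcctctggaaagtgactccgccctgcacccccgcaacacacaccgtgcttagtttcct
Mrpl41, minus strand of chr3:28179706-28180005: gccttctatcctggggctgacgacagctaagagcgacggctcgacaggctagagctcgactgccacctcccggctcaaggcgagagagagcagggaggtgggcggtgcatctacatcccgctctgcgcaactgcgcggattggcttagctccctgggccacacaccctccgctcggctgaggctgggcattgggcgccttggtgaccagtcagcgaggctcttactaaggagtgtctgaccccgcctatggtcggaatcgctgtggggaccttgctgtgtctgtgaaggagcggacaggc
Mrpl52, plus strand of chr15:31852686-31852985: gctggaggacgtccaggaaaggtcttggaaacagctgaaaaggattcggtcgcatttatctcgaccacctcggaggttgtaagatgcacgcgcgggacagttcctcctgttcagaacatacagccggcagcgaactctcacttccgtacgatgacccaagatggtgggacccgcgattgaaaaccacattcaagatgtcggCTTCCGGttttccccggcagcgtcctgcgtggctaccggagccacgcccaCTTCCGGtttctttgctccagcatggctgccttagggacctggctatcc
The Mrpl46 window holds the YY1 letters and the Mrpl17 window the NRF1 letters. The Mrpl52 window holds the ETS letters at 2 places, and the Mrpl41 window holds none of the 3 patterns. The window of Mrps16, which was also low in rat 70 (36.6, 38.3 and 15.4 FPKM), is not printed and likewise holds none. A link between the letters and the values was not tested.

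A RefSeq window was found for 56 of the 73 genes. Among these 56, the ETS letters stood in 18 (32.1%), against 10.7% of 21851 windows of protein coding genes and 8.75% of all 33469 windows of this length in the table. The YY1 letters stood in 12 (21.4%, against 3.31% and 2.53%) and the NRF1 letters in 7 (12.5%, against 5.67% and 4.25%). Windows of nuclear respiratory chain genes gave 30.8%, 19.2% and 11.5% for ETS, YY1 and NRF1, and those of cytosolic ribosomal protein genes 35.2%, 5.56% and 11.1%. The letters TATAAA, searched as a TATA box, were in 12.5% of the windows of the 56 genes and in 13.01% of those of protein coding genes. At least 1 of the ETS, YY1 and NRF1 patterns was present in 30 of the 56 windows, and 7 held more than 1 kind. These joint counts were not made for other windows, so they cannot be called high or low. In all 12 windows with the YY1 letters they lay after the gene's start, which was so for the first match in 57.9% of the 724 protein coding windows that hold them. ATGGCGGC contains the letters of a start codon, so some of these matches may lie in the coding sequence. A match describes letters and is no measured binding.

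Rat 35 stood apart from the other rats in its cell type markers, and this bears on every comparison between rats. The 11 neuronal markers had medians of 148, 7.79 and 148 FPKM, and all 11 were lowest in rat 35. The 13 markers of microglia and phagocytes had medians of 186, 619 and 216, all 13 highest in rat 35, as were 6 of 6 measured fibroblast genes (medians 45.3, 386 and 31.1). In a tissue extract, fewer cells of a type and less RNA per cell cannot be told apart. All 5 endothelial markers were highest in rat 35 as well (medians 14.6, 31.1 and 9.81), and 5 of 7 astrocyte markers were lowest there. Rat 70 stood apart too: 10 of 11 neuronal markers and 6 of 7 oligodendrocyte markers were highest there (oligodendrocyte medians 129, 120 and 313). Lowest in rat 70 were 4 of 5 endothelial, 9 of 13 microglia and phagocyte and 4 of 6 fibroblast markers. The part of these differences in the results below was not tested. The spread between rats is given with and without rat 35, for the members and for most of the lists whose spread is described.

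The mitochondrial ribosomal protein genes were measured at a moderate and common level. Of the 73, 70 had a mean of 1 FPKM or more and were analysed further. The lowest single value was 2.56 FPKM, for Mrpl1 in rat 70, and the highest was 84.6, for Mrpl41 in the same rat. The median over the 70 genes was 21.9, 20.0 and 16.4 FPKM (19.4 ± 2.80, SD, n = 3), against 10.7, 10.7 and 10.3 over the 13968 genes tested. The means of the members spanned 18.1-fold, and 57 of the 70 lay between 10 and 50 FPKM. The 46 large subunit genes, of which 43 were tested, had medians of 23.3, 22.2 and 17.8, and the 26 small subunit genes 19.4, 18.3 and 15.8. The ratio of the 2 medians was 1.20, 1.22 and 1.13 (1.18 ± 0.05, SD, n = 3), so the large subunit was the higher in each rat.

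**Figure D1:**
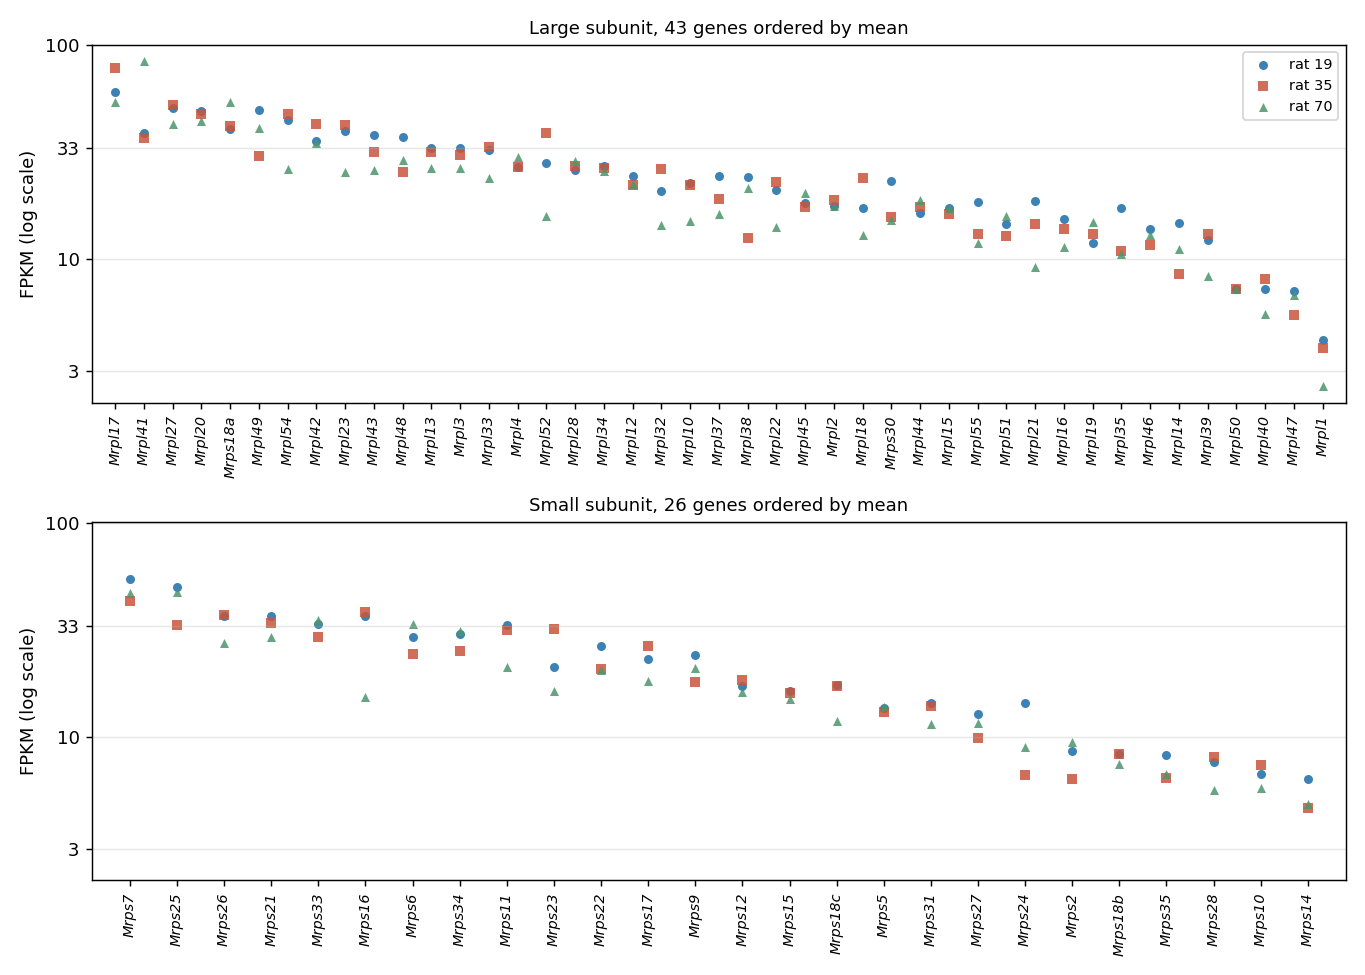
FPKM on a log axis of the 43 tested genes of the large subunit (upper panel) and the 26 of the small subunit (lower panel), each ordered by its mean; every point is 1 gene in 1 rat. Most genes have their 3 points close together compared with the 18.1-fold range of the means, while Mrpl41 and Mrps16 have rat 70 far from the other rats.

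The precision of each value could be read from the files. FPKM values of a gene were whole multiples of what 1 fragment is worth, which on a gene of 1 kb was 0.06426, 0.06075 and 0.06231 FPKM, or about 16 fragments per FPKM. A gene length at which every rat has a whole number of fragments, within 0.001, was found for all 70 genes, and for 0 after random changes of their values. The members rested on 51 to 1200 fragments per rat, with a median of 361, and the counting error of a gene, averaged over its 3 values, was 3.26% to 12.1%, with a median of 5.46%. The SD between rats, as a share of the mean, had a median of 16.5%. It was above the counting error in 62 genes, and above 3 times that error in 34. In the other 8 the rats differed by no more than counting alone gives. An SD over 3 values is itself imprecise, so a gene just above its counting error may not differ by more than counting. Mrpl20, at 5.71% against 4.17%, is such a gene.

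**Figure D2:**
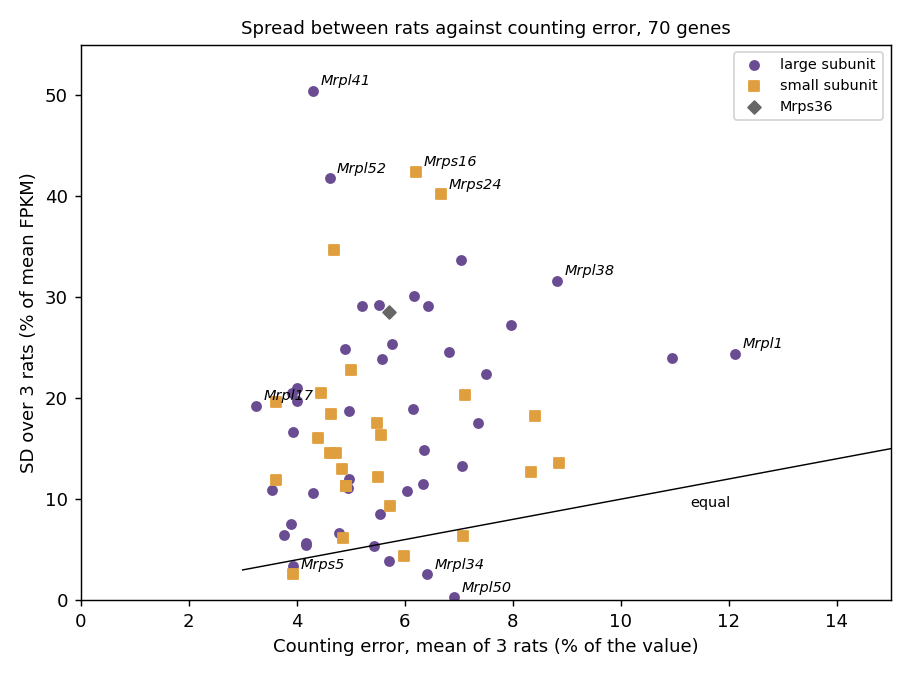
The SD over 3 rats as a percent of the mean FPKM, against the mean counting error in percent, for 70 genes; each point is 1 gene, coloured by subunit, and the line marks equal values. Of the points, 62 lie above the line, and Mrpl41, Mrps16, Mrpl52 and Mrps24 lie highest, while Mrpl50 is near 0.

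Between rats the members differed little. The SD of log2(FPKM + 1) had a median of 0.23 over the 70 genes (quartiles 0.15 and 0.32), against 0.45 over all genes tested and 0.43 over the 10397 genes within the same range of means. Only 4 members (5.71%) were over 2-fold apart between their highest and lowest rat, counted on FPKM + 1, against 42.5% of all genes tested. In 28 (40.0%) all 3 rats lay within 1.25-fold, against 13.5% of all genes. Without rat 35, 2 members and 10.9% of all genes were over 2-fold apart, so the share over all genes fell the more. Without rat 35 the median SD of the members was 0.22 and that of all genes 0.26, so the 2 medians lay closer together than with all 3 rats. Without rat 70 the median SD of the members was 0.10, against 0.36 over all genes. These shares describe the 3 libraries, and the difference from other genes was not tested.

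In the values as deposited, the pair of rats with the most members close together was 19 and 35, whose cell type markers differed widely. In this pair 47 of the 70 members (67.1%) lay within 1.25-fold of each other, against 34.5% of all genes tested. The pair of rats 35 and 70 had 41 such members (58.6%, against 25.6%), and the pair of rats 19 and 70 had 38 (54.3%, against 44.0%). These counts were not repeated under other scalings, and which pair is closest may depend on the scaling. The members' median of log2(FPKM + 1) less the gene's 3-rat mean was nearest between rats 35 and 70 in 3 other scalings. With the mitochondrial chromosome left out it was 0.15, -0.12 and -0.01. Across the 70 genes, which are not independent and share their libraries, Spearman's rho of the levels was 0.93 between rats 19 and 35 (0.78 across all genes tested). It was 0.92 between rats 19 and 70 (0.92 across all genes) and 0.86 between rats 35 and 70 (0.68). The order of the members by level was thus much alike in the 3 rats.

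As deposited, rat 70 had the lowest values. It was lowest in 40 of the 70 genes (57.1%, against 44.0% of all genes tested), rat 35 in 23 (32.9%, against 36.6%) and rat 19 in 7, against 19.4% of all genes. The highest value was in rat 19 for 36 genes (51.4%, against 24.6%), in rat 35 for 21, against 45.5% of all genes, and in rat 70 for 13 (18.6%, against 29.9%). For each gene, log2(FPKM + 1) in a rat less its 3-rat mean gives a deviation, and the median deviation of the members was 0.12, 0.00 and -0.10. The median gene of the whole table was at 0.02, 0.06 and -0.08, so relative to it the members were at 0.10, -0.06 and -0.02. Under 3 other scalings these relative values were between 0.09 and 0.10, between -0.07 and -0.06 and between -0.02 and -0.01. Rescaling a library shifts the members and all genes almost alike, so it could hardly change them. The relative values did move with other choices. With no minimum FPKM the value of rat 35 was -0.01, and without rat 19 it was -0.03. The value of rat 70 turned to 0.03 without rat 19 and was -0.09 without rat 35, and that of rat 19 fell to 0.06 without rat 70. The count of lowest rats did not hold. With libraries rescaled after leaving out the mitochondrial chromosome, 43 members were lowest in rat 35 and 26 in rat 70. Scaling by the median of gene ratios gave 34 and 29, and rescaling to a sum of 1000000 gave 27 and 30.

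**Figure D3:**
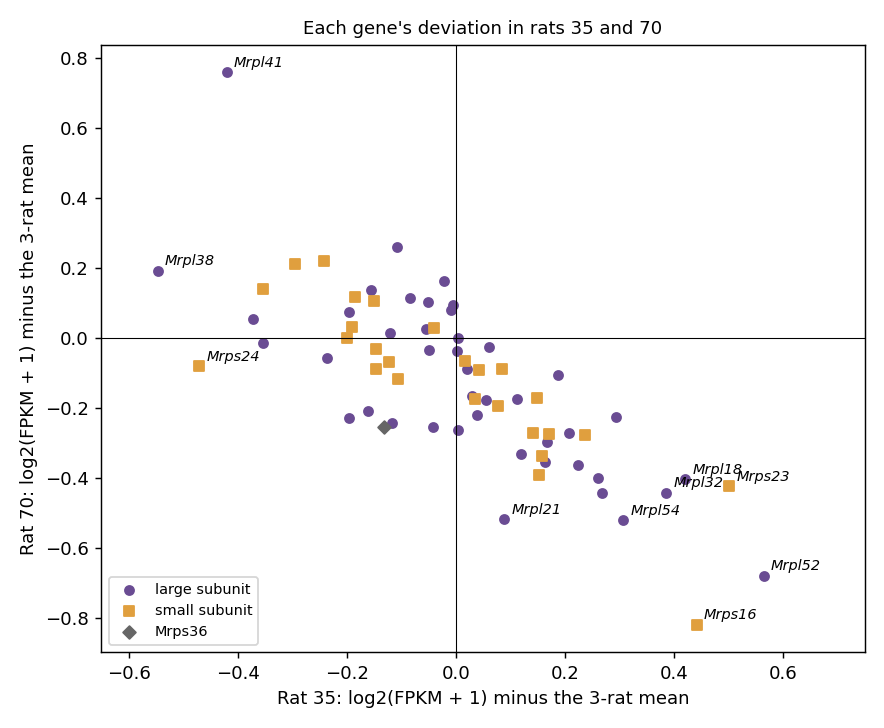
For each of 70 genes, log2(FPKM + 1) in rat 35 (x axis) and rat 70 (y axis) minus the gene's mean over 3 rats; each point is 1 gene, coloured by subunit, and genes with an SD above 0.4 are named. The deviations of the 3 rats sum to 0, so the axes are not independent; Mrps16 and Mrpl52 lie low in rat 70 and high in rat 35, and Mrpl41 lies the other way.

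Mrpl41, a large subunit protein gained in mitochondria, was the member with the largest SD relative to its mean. It was measured at 39.0, 36.8 and 84.6 FPKM (53.5 ± 27.0, SD, n = 3) on 428, 427 and 957 fragments. Rat 70 was more than 2-fold above both other rats, which lay within counting error of each other. The gene stands at chromosome 3, 2181045 to 2181962 (Rnor 6.0). A locus described as similar to it, RGD1560917 on chromosome 8, was at 7.30, 5.70 and 12.5 FPKM. Its ratio to Mrpl41 was 0.19, 0.15 and 0.15, so it had the same order of rats. Fragments of near-identical copies can be split between loci by counting, so both values are uncertain.

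Mrps16, a small subunit protein of bacterial descent, went the other way. It was at 36.6, 38.3 and 15.4 FPKM (30.1 ± 12.8, SD, n = 3) on 346, 383 and 150 fragments. Rats 19 and 35 were alike and rat 70 was 2.40-fold below rat 35 on the FPKM + 1 scale. Mrpl52, which was gained in mitochondria, was at 28.4, 39.1 and 15.9, with all 3 rats apart by more than counting error and rat 70 again lowest. The last member over 2-fold apart was Mrps24, the homolog of bacterial S3 in the head of the small subunit, at 14.5, 6.62 and 8.99. Here rat 19 was high and rat 35 was lowest. By pair of rats, Mrpl41 was the 1 member over 2-fold higher in rat 70 than in rat 19 (4.83% of all genes) and than in rat 35 (17.1%). In rat 35 over rat 70 there were 2, Mrps16 and Mrpl52 (19.9%), and in rat 19 over rat 70 there was Mrps16 (5.99%). In rat 19 over rat 35 there was Mrps24 (14.4%), and 0 were over 2-fold higher in rat 35 than in rat 19 (11.8%). Without rat 35, Mrpl41 and Mrps16 remained, without rat 19 only Mrps24 fell out, and without rat 70 only Mrps24 remained.

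The members with the next largest SD fell into different orders. Mrpl21 (18.8, 14.7 and 9.27 FPKM) was highest in rat 19 and lowest in rat 70. Mrpl54 (44.7, 47.7 and 26.4), Mrps23 (21.2, 32.1 and 16.4), Mrpl32 (20.8, 26.4 and 14.4) and Mrpl18, a relative of a bacterial protein that binds a small ribosomal RNA (17.4, 23.9 and 13.1), were highest in rat 35 and lowest in rat 70. Mrpl38, a protein of the central protuberance, the crown of the large subunit, was lowest in rat 35 (24.4, 12.6 and 21.6). These genes are named for their large SD, so their orders describe single genes only. Mrpl32 is known to be matured by the m-AAA protease, whose subunit genes Afg3l2 and Spg7 were at 25.3, 27.2 and 31.0 and at 8.93, 8.83 and 8.67.

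Other members were nearly level. Mrpl50, a large subunit protein gained in mitochondria, was at 7.25, 7.30 and 7.27 FPKM on 202, 215 and 209 fragments. Its SD of 0.31% is far below its counting error of 6.92%, so an agreement this close is finer than the depth can resolve. Mrps5, a protein of bacterial descent at the messenger RNA entry of the small subunit, was at 13.6, 13.1 and 13.8. Mrpl34 was at 27.2, 26.6 and 25.9, Mrpl15 at 17.4, 16.3 and 17.3, and Mrpl2, a core protein near the site of peptide bond formation, at 17.7, 19.0 and 17.8. All 5 were within counting error.

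Among the abundant members of the large subunit, Mrpl17 led with 60.5, 78.0 and 54.1 FPKM (64.2 ± 12.4, SD, n = 3). Mrpl27, a protein close to the tRNA ends at the catalytic site, followed Mrpl41 at 50.8, 52.6 and 42.9. Mrpl20 was at 49.6, 47.9 and 44.3, and Mrps18a, in the large subunit despite its name, at 40.6, 42.0 and 54.5. Mrpl49 was at 49.7, 30.4 and 41.3. The order among Mrpl27, Mrpl20 and Mrps18a was not the same in every rat, so these neighbours in level do not differ beyond their spread. In the small subunit, Mrps7, which helps to form the head, was highest at 54.6, 43.3 and 46.9, followed by Mrps25 at 50.05, 33.4 and 47.3. Mrps26 (36.9, 37.2 and 27.6), Mrps21 (36.9, 34.3 and 29.4) and Mrps33 (33.6, 29.2 and 35.0) came next and overlapped over the rats.

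The stalks and core of the large subunit were measured unevenly. Mrpl12, the stalk protein that meets the translation factors and is also known to bind the mitochondrial RNA polymerase, was at 24.5, 22.2 and 22.4 FPKM. Its anchor Mrpl10 was at 22.6, 22.2 and 15.2. Mrpl1, the protein of the other stalk, was the lowest member above 0, at 4.19, 3.86 and 2.56 on 81, 79 and 51 fragments. A locus described as Mrpl1-like, LOC100359687, was at 8.12, 8.29 and 5.84, about 2.12 ± 0.17 (SD, n = 3) times Mrpl1. How fragments shared by these loci were counted is not known, so the level of Mrpl1 is uncertain. The core protein Mrpl3 was at 33.2, 30.8 and 26.7 and Mrpl4 at 26.9, 27.0 and 30.1.

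Proteins around the peptide tunnel and the central protuberance had levels in between. Mrpl22 (21.0, 22.9 and 14.1 FPKM) and Mrpl23 (39.98, 42.6 and 25.6) line the tunnel, and both were lowest in rat 70. Mrpl45, which ties the ribosome to the inner membrane, was at 18.3, 17.6 and 20.3, and Mrpl44, which has a fold of RNA-cutting enzymes, at 16.5, 17.6 and 18.9. In the protuberance, Mrpl48 was at 37.5, 25.7 and 29.2, Mrpl46 at 13.9, 11.7 and 12.9 and Mrpl40 at 7.28, 8.15 and 5.55. Proteins of one complex were thus measured at transcript levels several-fold apart, with Mrpl48 above Mrpl40 in every rat.

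At the low end of the small subunit were Mrps14 (6.37, 4.66 and 4.89 FPKM), Mrps10 (6.74, 7.44 and 5.76) and Mrps28 (7.67, 8.08 and 5.66). In the large subunit, Mrpl47 (7.14, 5.53 and 6.86) and Mrpl40 were next above Mrpl1. Mrps12, a protein of the decoding centre, was at 17.3, 18.4 and 16.2 and differed by less than counting error. Mrps22 was at 26.5, 20.9 and 20.7 and Mrps2 at 8.59, 6.36 and 9.45. Mrps30 was at 23.3, 15.8 and 15.2. Mrps36, the member outside the ribosome, was at 8.95, 5.93 and 5.37, and its second row on chromosome 9 was at 0.41, 0.19 and 0.40.

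The 3 Mrps18 genes are paralogs that replaced a single bacterial protein and now occupy different places. Mrps18a, in the large subunit, was at 40.6, 42.0 and 54.5 FPKM, Mrps18c, which has the bacterial position in the small subunit, at 17.6, 17.3 and 11.9, and Mrps18b, elsewhere in the small subunit, at 8.37, 8.32 and 7.49. The order was the same in every rat. Mrps18a was 5.72 ± 1.34 times Mrps18b and 3.10 ± 1.27 times Mrps18c (SD, n = 3), with the largest ratios in rat 70 (7.27 and 4.56). Reads shared between the paralogs were not examined here.

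Mrpl30, Mrpl36 and Mrpl53 were listed at 0 in all rats, Mrpl36 and Mrpl53 on 2 rows each. An exact 0 can be a failed estimate in these files, so these genes are described only as listed at 0. Several genes of the mitoribosome that carry other names or spellings were also measured. The lower-case entries mrpl9, mrpl11 and mrpl24 were at 18.4, 20.3 and 16.0, at 20.4, 16.8 and 16.4 and at 18.1, 17.5 and 12.2 FPKM. Chchd1, a small subunit protein, was at 40.2, 41.4 and 34.0, and Dap3, a GTP-binding protein of the small subunit, at 21.5, 19.0 and 12.2. Ptcd3, an RNA-binding protein of the small subunit, was highest in rat 35 (17.6, 31.8 and 14.0). Ict1, a hydrolase of the large subunit that frees stalled peptides, was at 28.4, 29.8 and 21.8, Gadd45gip1 at 25.6, 20.9 and 19.8 and Mrp63 at 8.99, 7.21 and 7.62. These 6 form a list of 9 measured genes with the insertase Oxa1l (29.6, 36.8 and 28.6) and the assembly genes Malsu1 and Mpv17l2. Of the 9, 8 were lowest in rat 70 as deposited, against 44.0% of all genes tested. The lowest rat was not counted for this list under other scalings. Over 2-fold apart was 1 of the 9, Ptcd3, against 42.5% of all genes.

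Bacterial homologs and proteins gained in mitochondria were compared as another division of the same genes. The 41 tested homologs had medians of 20.8, 22.2 and 15.4 FPKM and the 28 gained proteins 24.4, 20.0 and 19.6. Mrps18a and Mrps18b were counted among the gained proteins although the Mrps18 paralogs replaced a bacterial protein, so the division is not strict. The ratio of the gained to the homologous group was 1.17, 0.90 and 1.27 (1.12 ± 0.19, SD, n = 3), and its direction differed between rats. Their median SDs were 0.21 for homologs and 0.23 for gained proteins.

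Position in the genome was shared by some members. By the coordinates in the files (Rnor 6.0), 19 of the 73 genes (26.03%) had a gene on the other strand that starts within 1000 bp and reads away. Of the 70 tested members, these 19 are 27.1%, against 9.25% of all genes tested that have such a neighbour. Mrps11 and Mrpl46, one from each subunit, are such a pair, with starts 72 bp apart on chromosome 1 (140477868 and 140477796). In the RefSeq models on GRCr8 there are 233 bases between the starts, and the windows of the pair share 267 bases, so the printed Mrpl46 window shows both. Mrps11 was at 33.5, 31.5 and 21.3 FPKM and Mrpl46 at 13.9, 11.7 and 12.9. The ratio was 2.41, 2.69 and 1.65 (2.25 ± 0.54, SD, n = 3), so the pair did not keep a fixed ratio, and rat 70 was lowest for Mrps11 only.

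Several other partners also work in mitochondria. Mrps12 starts 16 bp from Sars2, the mitochondrial seryl-tRNA synthetase gene (6.39, 5.54 and 5.45 FPKM), and Mrps27 67 bp from Ptcd2, an RNA-binding protein gene (6.69, 5.25 and 5.02). Mrpl47 starts 266 bp from Ndufb5, a subunit gene of respiratory complex I, which was at 50.9, 47.6 and 43.1 and thus several-fold above Mrpl47. Mrpl43 (38.0, 31.7 and 26.1) overlaps by 48 bp with Peo1, the gene of the helicase that unwinds mitochondrial DNA, which had another order of rats (8.28, 4.40 and 11.5). Other partners have no known mitochondrial role, such as Psma2, a proteasome gene 192 bp from Mrpl32 (95.3, 111 and 81.3). Some partners had levels near the member's, such as Zfp189 (3.17, 2.73 and 12.3) beside Mrpl50 in the mean but not in each rat, and Tcp1, a chaperonin gene (23.9, 25.7 and 23.1), beside Mrpl18. Klc4, a kinesin light chain gene, was at 14.9, 13.0 and 10.3 beside Mrpl2. Levels of partners thus ranged from close to several-fold apart.

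In all, 11 members overlap another listed gene, always with at least 1 on the other strand, and for 9 the other gene had a mean of 1 FPKM or more. These 9 are Mrps7, Mrps18a, Mrpl49, Mrpl43, Mrpl13, Mrpl21, Mrps2, Mrpl47 and Mrpl30, while Mrps9 and Mrps28 (24.2, 18.1 and 20.9 FPKM for the former) overlap genes listed at 0. The sources used here do not say whether counting used strand, so fragments in the overlaps cannot be assigned with certainty. Among the overlaps with genes of 1 FPKM or more, the longest were those of Mrpl30 with Mitd1 (76963 bp) and Mrps18a with Rsph9 (6709 bp). Mrpl47 overlaps Actl6a over 1443 bp of its 11143 bp. The share of all genes that overlap another is not given here, so the 11 members cannot be called many or few.

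Genes that serve the mitoribosome were also close between rats. Of 31 listed assembly genes 25 were in the files and 22 were tested, with deviations of 0.08, -0.02 and -0.09, a median SD of 0.22 and 0 over 2-fold apart (0.17 and 0 without rat 35). Ngrn was highest among them (38.5, 21.5 and 40.9 FPKM), followed by the helicase gene Dhx30 (29.05, 22.7 and 37.8), and both were lowest in rat 35. Mettl17, a methyltransferase-like assembly factor of the small subunit, was highest in rat 35 (8.04, 10.3 and 5.45). Of 16 translation factor genes 1 was over 2-fold apart, Tmem70 (15.4, 8.32 and 21.0), which is better known for assembly of the ATP synthase. The 16 genes had a median SD of 0.24 (0.18 and 0 over 2-fold apart without rat 35). The elongation factor gene Tufm was at 35.7, 35.1 and 31.3 and its exchange factor Tsfm at 6.61, 7.55 and 11.98. Of 21 tested genes for charging mitochondrial tRNAs 0 were over 2-fold apart, and their median SD was 0.20 (0 and 0.20 without rat 35). Kars, whose product also charges tRNA in the cytosol, was the highest at 51.4, 68.8 and 51.5.

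With all 3 rats, regulators of mitochondrial gene expression were more spread than the members but less than all genes tested. Their median SD was 0.36 over 17 genes, against 0.23 for the members and 0.45 over all genes. Of the 17, 3 (17.6%) were over 2-fold apart, against 5.71% of the members and 42.5% of all genes. Ppargc1a, a coactivator that drives mitochondrial biogenesis and is found in neurons, was at 3.87, 1.31 and 9.47 FPKM, lowest in rat 35. The factor genes Nrf1 (7.67, 10.7 and 6.18) and Gabpa (9.18, 12.5 and 7.08) were highest in rat 35 and lowest in rat 70, and Myc (7.99, 14.9 and 4.29) had that order too. Tfam, which packs mitochondrial DNA, was at 19.4, 20.9 and 15.9. Among the 70 members, 19 (27.1%) had the order of Nrf1, highest in rat 35 and lowest in rat 70, which 33.6% of all genes tested had. The order of Ppargc1a, highest in rat 70 and lowest in rat 35, was found in 8 (11.4%, against 22.4%). Without rat 35 the median SD of the 17 genes was 0.19 and 1 was over 2-fold apart. The median SD of the members was then 0.22, so the larger spread of the regulators was not seen without that rat.

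**Figure D4:**
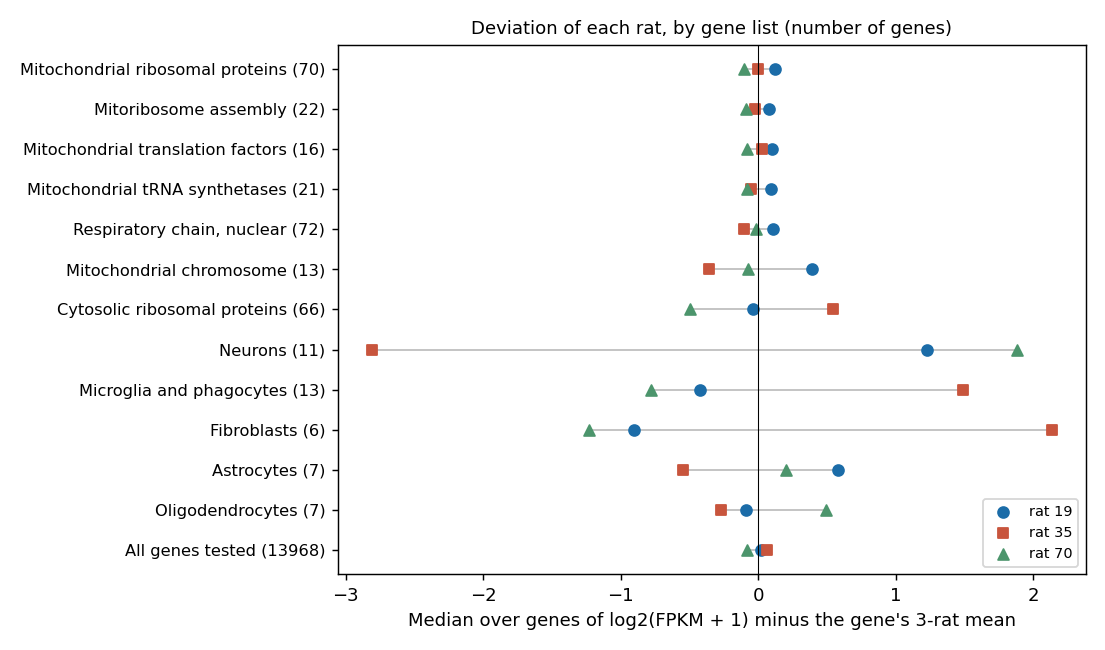
The median over genes of log2(FPKM + 1) minus the gene's 3-rat mean, for each rat, in 12 gene lists and over all genes tested, with the number of genes in brackets. The mitochondrial ribosomal proteins lie within 0.22 of each other over the rats, while neurons span 4.69 and cytosolic ribosomal proteins 1.04. All genes tested span 0.15, mitoribosome assembly genes 0.17 and nuclear respiratory chain genes 0.21.

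The other ribosome of the cell behaved differently in these libraries. Cytosolic ribosomal protein genes, of which 66 were tested, had deviations of -0.03, 0.55 and -0.49 and a median SD of 0.53. Of them 37 were over 2-fold apart, 63 were highest in rat 35 and 63 were lowest in rat 70. Rpl41 was at 814, 1208 and 526 FPKM and Rplp0, the stalk protein gene, at 674, 1242 and 551. Without rat 35 their median SD was 0.31 and 5 were over 2-fold apart, against 0.22 and 2 for the mitochondrial ribosomal proteins. With all rats the range of deviations was 1.04 for the cytosolic and 0.22 for the mitochondrial ribosomal proteins, against 0.15 over all genes tested. Many cytosolic members have near-identical copies, so their single values are uncertain. The median of the mitochondrial ribosomal proteins was 0.11, 0.06 and 0.11 of the cytosolic median in FPKM, lowest in rat 35.

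The nuclear genes of the respiratory chain and ATP synthase, whose complexes depend on products of the mitoribosome, had a like spread. Their median SD was 0.23 over 72 genes, 3 were over 2-fold apart, and their deviations were 0.11, -0.10 and -0.01. Without rat 35 the median SD was 0.17 and 1 was over 2-fold apart. They were higher in level, with medians of 96.04, 84.2 and 92.7 FPKM, led by Atp5b (490, 455 and 612) and Cox4i1 (482, 428 and 467). The 13 genes of the mitochondrial chromosome, the templates that the mitoribosome reads, differed more: all 13 were highest in rat 19, 12 were lowest in rat 35, and their deviations were 0.39, -0.36 and -0.07. Without rat 35 all 13 were still lower in rat 70 than in rat 19, with a median SD of 0.29 and 0 over 2-fold apart. Mt-co1 was at 25852, 16214 and 18161 and Mt-nd6 at 65.5, 17.7 and 49.1. The median FPKM of these templates was 493, 312 and 563 times that of the mitochondrial ribosomal protein genes (456 ± 130, SD, n = 3). The ratio was lowest in rat 35, the rat with the lowest neuronal markers, and the part of cell types in it was not tested.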

How the data were processed

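Messenger RNA was separated from total RNA of motor cortex and made into libraries, per the labels' protocols. The deposited files hold 1 FPKM value per gene and library. Per the design text, the authors obtained it with a Perl script from normalized fragment counts. The normalization and the use of strand are not stated. Rnor 6.0, StringTie 1.3.0 and HISAT2 2.0.4 appear in the submitters' processing notes, with no role given.

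The 3 files were joined on the gene identifier in Python 3.11.15 with pandas 2.3.3. One row was kept per symbol, giving 26715 genes, of which 13968 had a mean FPKM of 1 or more and were analysed on the log2(FPKM + 1) scale. This scale makes differences of low genes look smaller. With 1 group no contrast was tested, and values are given per rat with the mean and SD, the spread between these 3 animals. Effective depth (15560000, 16460000 and 16050000 fragments) was read from the steps that single fragments make in FPKM of genes under 3000 bp. A member's length was the shortest from 100 to 20000 bp, within its span, that gave whole fragments, so it may be a divisor of the true one. Counting errors cover counting only. The scripts were tested on simulated data.

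Named members are, in each subunit, the 6 highest and 3 lowest means, then the 10 largest and 5 smallest SDs, those over 2-fold apart, at 0, on several rows or overlapping another gene, and the Mrps18 genes, Mrps30 and Mrps36. Other lists are named by high mean or large SD. Further genes were added for their roles after their values were seen, and so were the promoter patterns and windows. Members and lists were chosen with earlier results of these data known. Alternatives were another pseudocount, other minima and scalings, summed rows and leaving out each rat. The comparison lists without each rat were added after the data were seen.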

Additional observations from a re-analysis of the deposited data

How the results depend on the processing

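Other settings were a pseudocount of 0.1, FPKM minima of 0.5, 5 or none, 3 other scalings, summing rows of one symbol, and leaving out each rat. The deviations depended on the scaling, and in all 3 other scalings rat 35 was the lowest in place of rat 70. Without the mitochondrial chromosome they were 0.15, -0.12 and -0.01. Scaling by the median of gene ratios gave 0.082, -0.051 and -0.012, and a sum of 1000000 gave 0.054, -0.020 and -0.013. Rescaling each library to a sum of 1000000 raised the median level from 4.34 to 5.24 (log2), as it raised the median of all genes from 3.53 to 4.26, and put 13 members lowest in rat 19 in place of 7. Leaving out the mitochondrial chromosome before rescaling put 43 members lowest in rat 35, 26 in rat 70 and 1 in rat 19. Over the sets without 1 rat, the median level was 4.26 to 4.45 and the median SD 0.10 to 0.22. The number over 2-fold apart was 1 to 3 of the 4, the number lowest in rat 19 was 15 to 26, in rat 35 28 to 44 and in rat 70 42 to 55, where fewer rats share the count. The list deviations were 0.03 to 0.14 in rat 19, -0.03 to 0.05 in rat 35 and -0.14 to -0.05 in rat 70. In all 3 other scalings the 4 genes remained over 2-fold apart; Mrpl38 joined them in the scaling without the mitochondrial chromosome and Mrpl21 with a pseudocount of 0.1. In the scaling without the mitochondrial chromosome Mrps16 was highest in rat 19 in place of rat 35. No paired analysis was possible because the samples form 1 group.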
